A study of Mus musculus with 384 samples.

Results

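The 10 genes described here encode the scaffold that holds synaptic vesicles at the release site of a ribbon synapse, together with the Unc13 priming factors. They are Ctbp2, Bsn, Pclo, Rims1, Rims2, Erc1, Erc2, Unc13a, Unc13b and Unc13c, chosen by name out of 32813 genes in the deposited matrices, and all 10 were present in them. Their levels were read in single retinal cells of mice at postnatal day 17, sorted for yellow fluorescent protein (YFP) and sequenced by Smart-seq2, a full-length method that counts reads and carries no molecular identifiers. All cells came from mice in which the Kcng4 gene carries Cre recombinase and the Thy1-stop-YFP Line#1 transgene turns on YFP after Cre has acted, so YFP marks cells with past or present Kcng4 activity in which the Thy1 promoter is also active. There was no other genotype and no treatment. Retinas 1la and 1Ra came from mouse 1, and retinas 2la and 2Ra from mouse 2. Each retina gave 96 cells.

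Values of 383 cells were used, and 321 of them had at least 3000 genes with an expected count of 1 or more. The 3 marker genes Sox6, Vsx1 and Ddit4l, each at 20 TPM or more (TPM is transcripts scaled to 1 common total per cell and for transcript length), divided these cells. A level of that size for only 1 of the markers was found for Sox6 in 151 cells (30 to 46 per retina), for Vsx1 in 60 cells (12 to 18 per retina) and for Ddit4l in 59 cells (10 to 20 per retina). They are called Sox6-only, Vsx1-only and Ddit4l-only cells below. The other cells above the gene minimum had none of the 3 markers (33 cells) or several (18 cells), and 62 wells lay below the minimum. The replicate is the mouse (n = 2), and a retina cannot be told apart from its plate.

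The depth of the 3 groups was alike, with medians of 1067453, 1072602 and 1091484 counts per cell for Sox6-only, Vsx1-only and Ddit4l-only cells, and a range of 203656 to 1945581 over the 321 cells. Of 12 bipolar cell markers, 12, 11 and 10 reached 1 TPM in over 50% of the cells of the 3 groups in that order, and of 6 rod bipolar markers 1 did so in each group. Of 8 rod markers 4, 4 and 2 did so, of 8 Müller glia markers 3, 2 and 2, and of 5 horizontal cell markers 2 in each group. The level is low: Grm6 passed it in 55.9% of Ddit4l-only cells with a median of 1.39 TPM, against 719 TPM in Sox6-only cells. Cabp5 passed it in 61.7% of Vsx1-only cells with a median of 1.61 TPM. Kcng4 itself reached 1 TPM in 98.0% of Sox6-only, 75% of Vsx1-only and 98.3% of Ddit4l-only cells. Rod transcripts were present unevenly: the summed level of 8 rod markers was 1000 TPM or more in 29.1%, 31.7% and 20.3% of the cells of the 3 groups, with retina means of 1316 to 2776, 946 to 3824 and 755 to 2079 TPM, and in the Vsx1-only cells of retina 2Ra this share was 58.3%. Photoreceptors also build ribbons, so the group means of the members were also computed without these cells. For 23 of the 30 means the value without them was 0.8 to 1.2 times that with them, and the 7 means outside this range, of Rims1, Erc1, Erc2, Unc13b and Unc13c, are given with their genes.

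Bipolar cells release glutamate continuously from ribbons, plate-like bodies that tether vesicles above the presynaptic membrane. The body of the ribbon is RIBEYE, a protein made from Ctbp2 by use of an internal start, while the other start gives the transcriptional corepressor CtBP2. Bassoon (Bsn) and piccolo (Pclo) are giant scaffold proteins that anchor the ribbon and organise the active zone, RIM proteins (Rims1, Rims2) link vesicles to calcium channels, the ERC/CAST proteins (Erc1, Erc2) bind RIMs and bassoon, and the Munc13 proteins (Unc13a, Unc13b, Unc13c) make docked vesicles ready to fuse.

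In mm10 coordinates of the GENCODE M21 annotation, Ctbp2 lies on chromosome 7 from 132987563 to 133124354 (minus strand) and has 20 annotated transcripts. Bsn (chromosome 9, 108096022 to 108190384) and Pclo (chromosome 5, 14514918 to 14863459) have 2 and 4. The RIM genes lie on chromosome 1 (Rims1, 22286251 to 22805994) and chromosome 15 (Rims2, 39198261 to 39684372), and the ERC genes on chromosome 6 (Erc1, 119570796 to 119848167) and chromosome 14 (Erc2, 27622428 to 28478537). Unc13a covers 47341 bases of chromosome 8 (71624417 to 71671757). Unc13b lies on chromosome 4 (43058953 to 43264871) and Unc13c, which covers 489545 bases, on chromosome 9 (73479422 to 73968966).

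For Ctbp2 the start of transcription decides the protein. Transcript Ctbp2-214, of 3604 bases, starts at position 133015248 and its first exon of 1731 bases (133013518 to 133015248) is the one that belongs to the RIBEYE form. Transcripts Ctbp2-201 (2321 bases) and Ctbp2-209 (1997 bases) start far upstream, at 133123367 and 133123166, and lack that exon. The RefSeq promoter table (GRCm38.p6, the same build) held 10 windows for 9 members; Rims2 had none. Of its 2 windows for Ctbp2, one lies before the RIBEYE start and the other before position 133081860, which is not the start of Ctbp2-201 or Ctbp2-209 and at which no GENCODE M21 transcript of the gene begins. The 250 bases before each start were searched on both strands for TAATCC, the core motif of the homeodomain factors OTX2 and CRX, which act in photoreceptors and bipolar cells, and for TAATTA, a core of paired-like homeodomain factors. TAATCC was found in 1 of the 10 member windows, the one before the RIBEYE start, with its first base 121 bases before the start site in the orientation GGATTA, and TAATTA in none. Among all 32851 windows of this length, 6.25% held TAATCC and 4.84% held TAATTA, so a single match in 10 windows is no departure from the background. The windows before both Ctbp2 starts in RefSeq and before Unc13a and Unc13c, the Unc13 genes whose levels differed most between the groups, are shown 5′ to 3′, with the match in capitals.
Ctbp2, RIBEYE start (chr7:133015248-133015497, minus strand): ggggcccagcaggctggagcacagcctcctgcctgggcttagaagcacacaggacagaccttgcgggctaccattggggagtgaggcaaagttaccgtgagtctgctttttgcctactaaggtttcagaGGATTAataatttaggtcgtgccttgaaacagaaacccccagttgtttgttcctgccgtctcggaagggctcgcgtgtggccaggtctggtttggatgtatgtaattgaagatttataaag
Ctbp2, other RefSeq start (chr7:133081861-133082110, minus strand): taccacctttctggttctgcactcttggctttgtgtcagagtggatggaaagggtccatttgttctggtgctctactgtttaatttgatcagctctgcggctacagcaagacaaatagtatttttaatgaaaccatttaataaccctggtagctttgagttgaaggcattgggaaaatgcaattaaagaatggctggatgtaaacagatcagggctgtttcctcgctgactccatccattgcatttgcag
Unc13a (chr8:71671758-71672007, minus strand): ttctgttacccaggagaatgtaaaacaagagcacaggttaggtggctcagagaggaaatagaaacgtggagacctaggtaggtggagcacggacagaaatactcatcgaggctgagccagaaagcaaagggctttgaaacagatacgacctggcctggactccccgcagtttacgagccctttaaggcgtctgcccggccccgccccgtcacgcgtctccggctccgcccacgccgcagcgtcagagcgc
Unc13c (chr9:73969038-73969287, minus strand): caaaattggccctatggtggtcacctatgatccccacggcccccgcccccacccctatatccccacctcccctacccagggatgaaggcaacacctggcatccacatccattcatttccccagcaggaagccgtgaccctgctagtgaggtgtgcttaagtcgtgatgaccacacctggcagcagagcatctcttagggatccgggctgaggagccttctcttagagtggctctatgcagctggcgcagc
The Unc13a window had a GC content of 58% and 18 CpG pairs, and the Unc13c window 58.8% and 6. The RIBEYE window had 51.6% and 7, and the other Ctbp2 window 42.4% and 2, against medians of 52.4% and 6 over all windows. A match of letters in such a window is a description and not a binding site.

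On the TPM scale, which is per length, Ctbp2 was the highest of the 10 genes in each group. Its mean over the mice was 107 TPM ± 13.8 (SD, n = 2 mice) in Sox6-only, 141 ± 13.9 in Vsx1-only and 70.4 ± 19.8 in Ddit4l-only cells. Unc13b stood next in each group, at 81.1 ± 8.16, 75 ± 20.6 and 68.5 ± 23.3 TPM, and the retina means of Ctbp2 and Unc13b overlapped in all 3. In Sox6-only cells the order went on with Rims2 (76.9 TPM), Unc13a (45.5), Erc1 (30.6), Pclo (28.4), Bsn (16.4), Erc2 (10.8), Rims1 (7.50) and Unc13c (2.74), and of the 9 neighbouring pairs in this order only Pclo and Bsn had retina means that did not overlap. In Vsx1-only cells Unc13c followed Ctbp2, Unc13b and Unc13a, at 58.2 TPM, above Rims2 at 39.6 TPM, and the retina means of every neighbouring pair overlapped. In Ddit4l-only cells Unc13c was the lowest, at 1.89 TPM, and did not overlap with its neighbour Bsn at 9.30 TPM; Rims2 at 53.6 and Unc13a at 28.1 TPM were the other neighbours without overlap. This order depends on the transcript length that the quantification gave each gene. With the mean CPM (summed read counts scaled to 1 common total, with no length scaling) divided by the longest annotated transcript, an alternative added after the data had been seen, Rims2 passed Ctbp2 in Sox6-only (50.5 against 44.6 CPM per kilobase) and Ddit4l-only cells (33.6 against 29.6). Ctbp2 stayed first in Vsx1-only cells at 63.3 CPM per kilobase, followed by Unc13c at 35.1, and Unc13b stood at rank 6 in each group. That rank of Unc13b rests on its longest transcript of 14754 bases, a length that the quantification came near in no cell.

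Single cells varied far more than the group means. Ctbp2 had at least 1 expected count in 96.0% (95% exact binomial interval 91.6 to 98.5) of Sox6-only, 98.3% (91.1 to 99.96) of Vsx1-only and 84.7% (73 to 92.8) of Ddit4l-only cells. Rims1 and Erc2 were found in the minority of cells in every group, Rims1 in 34.4%, 45% and 33.9% and Erc2 in 39.1%, 43.3% and 40.7%. Intervals of this kind cover counting error only, since cells of a retina share their source. The level of a sparse gene rested on few cells: 5 of 151 Sox6-only cells, 3 of 60 Vsx1-only cells and 2 of 59 Ddit4l-only cells held 50% of the summed Rims1 TPM, against 31, 15 and 11 cells for Ctbp2. A median of 7 of the 10 genes was found per Sox6-only cell, 8 per Vsx1-only cell and 6 per Ddit4l-only cell. This number was higher in cells with more genes of any kind (Spearman's rho over cells 0.496, 0.462 and 0.690). Between the genes themselves the rank correlations of TPM over cells ran from -0.126 to 0.163 over the 45 pairs in the 151 Sox6-only cells, from -0.226 to 0.391 in the 60 Vsx1-only cells and from -0.138 to 0.377 in the 59 Ddit4l-only cells, and at this sparseness they are given as a description only.

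**Figure D1:**
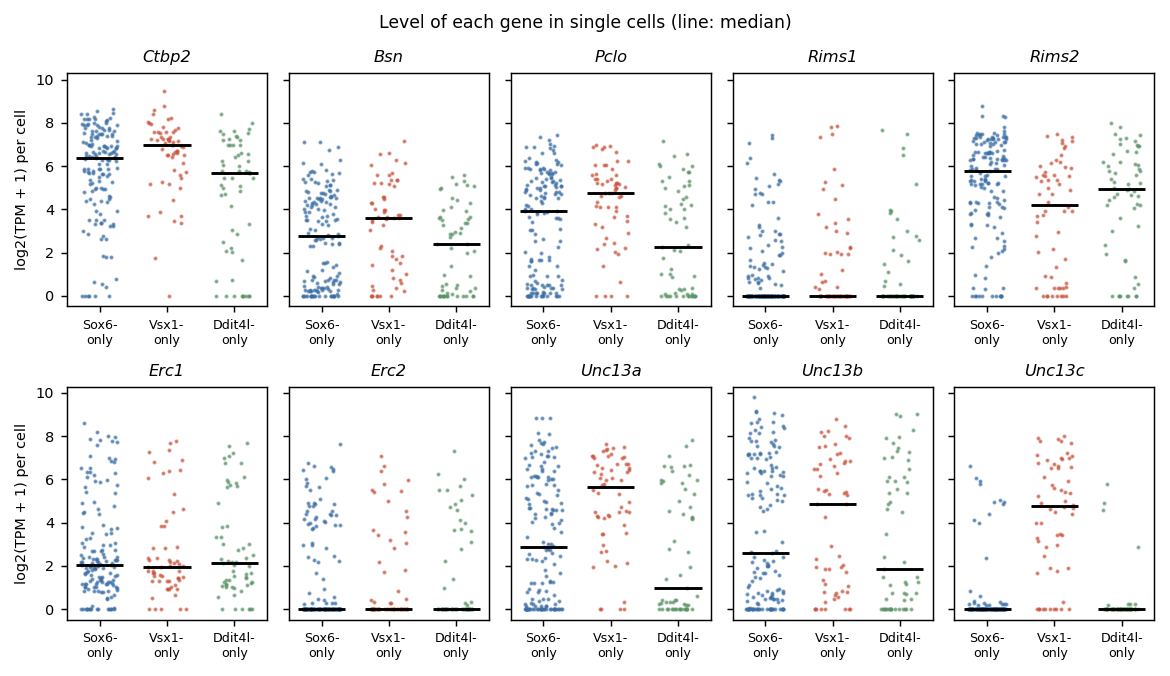
Level of each of the 10 genes in single cells, as log2(TPM + 1) on the vertical axis, by cell group; each point is a cell and the line is the median. The Unc13c points of Vsx1-only cells spread up to 260 TPM around a median of 26.1 TPM, while the medians of the other groups lie at 0.

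Ctbp2, the ribbon's main component, was read at retina level in CPM of the summed cells. Its 4 Sox6-only sums were close to each other, at 171, 168, 147 and 154 CPM in retinas 1la, 1Ra, 2la and 2Ra. In Vsx1-only cells the values were 243, 221, 280 and 150 CPM in the same order. In Ddit4l-only cells they were 169, 100, 87.1 and 65.3 CPM. The Vsx1-only sums of 3 retinas lay above all others, and the retina 2Ra sum, from the 12 cells with the largest share of rod-rich cells, lay among the Sox6-only sums. The fitted log2 difference between Vsx1-only and Ddit4l-only cells was 1.13 ± 0.25 (SE), with an adjusted p of 0.231 from edgeR's quasi-likelihood test, and 0.95 to 1.30 with 1 retina left out. Within each of the 4 retinas the Ddit4l-only sum was below both others.

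The length that stands behind a TPM value can be read from the files, because an expected count divided by its TPM is proportional to the mean length of the transcripts to which the quantification gave the reads. The scale was set on 2296 genes with a single annotated transcript, whose length can hardly vary over cells. Their median SD of 0.0018 on the log2 scale checks the scale and not the lengths of genes with several transcripts. For Ctbp2 the median implied length was 2094 bases (quartiles 2003 and 2598) in 107 Sox6-only cells with at least 50 counts, 2369 (2006 and 3095) in 47 Vsx1-only cells and 2053 (2001 and 2217) in 32 Ddit4l-only cells. These values lie between the lengths of Ctbp2-209 and Ctbp2-214. A length within 10% of the 3604 bases of Ctbp2-214 or above it was found in 12, 10 and 3 cells, or 11.2%, 21.3% and 9.38%. The retina medians of the groups overlapped (2034 to 2293, 2006 to 2844 and 2019 to 2103 bases). Reads in the exons that these transcripts share do not tell them apart, so the length describes the quantification and is not a measure of RIBEYE alone.

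Bsn, the bassoon gene, had Sox6-only sums of 121, 112, 120 and 85.6 CPM in retinas 1la, 1Ra, 2la and 2Ra. Its Vsx1-only sums were 97.7, 106, 254 and 118 CPM, of which retina 2la stood apart. Its Ddit4l-only sums were 138, 73.4, 51.4 and 68.3 CPM. The groups overlapped in every comparison. Pclo, the piccolo gene, was the more abundant of this pair, with Sox6-only sums of 251, 236, 197 and 211 CPM. Its Vsx1-only sums were 192, 257, 321 and 302 CPM. The Ddit4l-only sums ran from 38.7 CPM in retina 2Ra to 361 CPM in retina 1la, a spread wider than that of both other groups, which it enclosed. The fitted log2 differences between Vsx1-only and Ddit4l-only cells were 0.89 ± 0.49 for Bsn and 0.83 ± 0.49 for Pclo, with adjusted p of 0.533 and 0.563 in edgeR. Both rested on single retinas: that of Pclo was 0.37 without retina 1Ra and 1.42 without retina 1la (unadjusted p = 0.0046 in edgeR), and that of Bsn was 0.40 without retina 2la and 1.18 without retina 1la.

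**Figure D2:**
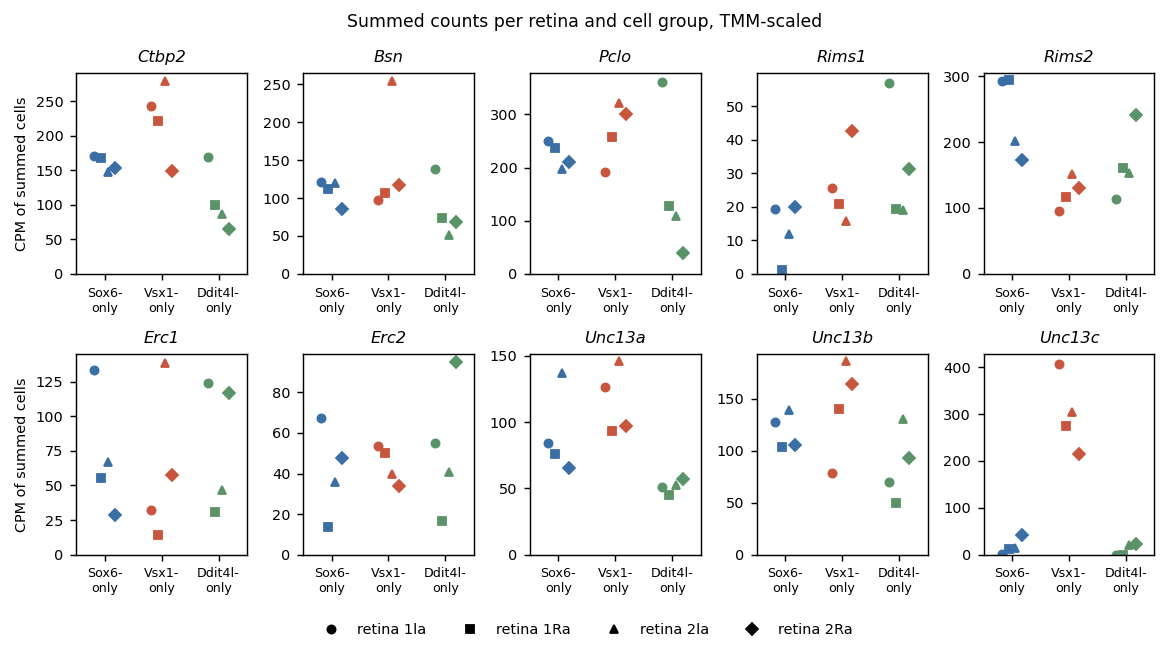
CPM of the summed cells on the vertical axis (linear, from 0) for each gene, by cell group; each point is the sum of 1 retina and the marker shape gives the retina. The Unc13c sums of Vsx1-only cells sit between 214 and 408 CPM and all other Unc13c sums at 43 CPM or lower.

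Rims2 was the main RIM gene, and unlike Ctbp2 it had its highest mean in Sox6-only cells. The Sox6-only sums were 292, 294, 202 and 172 CPM in retinas 1la, 1Ra, 2la and 2Ra. All 4 were above the Vsx1-only sums of 95.6, 116, 152 and 131 CPM. The Ddit4l-only sums, 114, 161, 153 and 242 CPM, overlapped with those of both other groups. The log2 difference between Vsx1-only and Sox6-only cells was -0.99 ± 0.35, with an adjusted p of 0.554 in edgeR. Within Sox6-only cells the mice differed, at 296 CPM in mouse 1 and 189 CPM in mouse 2.

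Rims1 was low everywhere and its sums overlapped between all groups, although within each of the 4 retinas the Sox6-only sum was the lowest of the 3. In Sox6-only cells they ran from 1.30 CPM in retina 1Ra to 19.8 CPM in retina 2Ra, in Vsx1-only cells from 15.7 to 42.6 CPM and in Ddit4l-only cells from 19.1 to 57 CPM. As a share of the summed TPM of both RIM genes, Rims1 held 9.36% ± 3.07 (SD, n = 2 mice) in Sox6-only, 31% ± 2.96 in Vsx1-only and 18.4% ± 5.60 in Ddit4l-only cells. The retina values of this share did not overlap between Sox6-only cells (1.05 to 15.1%) and Vsx1-only cells (22.2 to 38.3%). In the median cell with either gene it was 0% and 2.20%, so the retina values rest on few cells. A share of a pair has no counterpart over all genes here, so this is a description only. The size of the share depends on the length used: with counts divided by the longest transcript, Rims1 held 4.44%, 13.4% and 12.4% in the same order, so that Vsx1-only and Ddit4l-only cells were nearly level. Without the rod-rich cells the Rims1 means were 18.4 CPM ± 4.25 in Sox6-only and 35.3 ± 6.60 in Vsx1-only cells, against 14.2 ± 1.52 and 25.1 ± 2.06 with them on the same unscaled CPM, and its TPM share in Vsx1-only cells was 37.9%. The part of rod RNA in these values was not tested. Rims2 was the higher of the pair in 128 of 146 Sox6-only, 39 of 53 Vsx1-only and 47 of 54 Ddit4l-only cells with either gene.

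The ERC genes had no ordered difference between the groups. Erc1, which is widely expressed outside neurons as well, had retina sums of 28.5 to 133 CPM in Sox6-only, 14.1 to 139 in Vsx1-only and 30.5 to 124 in Ddit4l-only cells. Erc2, the form enriched in brain and retina, had sums of 13.6 to 67.6, 33.9 to 53.4 and 16.4 to 94.8 CPM. The group means of Erc2 lay within 44.5 to 45.9 CPM, and those of Erc1 within 63.5 to 78.6 CPM. Erc1 held 71.1% ± 13.1, 64.9% ± 22.3 and 71.1% ± 9.78 of the summed ERC TPM in Sox6-only, Vsx1-only and Ddit4l-only cells, so the SD over 2 mice was wider than the differences between the groups. With counts divided by the longest transcript Erc1 held 53.7%, 45.9% and 53.2%, which made Erc2 the larger of the pair in Vsx1-only cells. Without the rod-rich cells Erc1 had a mean of 101.5 CPM ± 53.9 in Sox6-only cells, against 78 ± 39.4 with them, and Erc2 one of 35.3 ± 17.4 in Ddit4l-only cells, against 46.4 ± 17.3.

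Among the 10 genes, Unc13c (29.7-fold) and Unc13a (2.31-fold) had the largest ratios of the highest to the lowest group mean. Unc13a, the main Munc13 gene of most brain synapses, had Ddit4l-only sums of 51, 45, 52.5 and 57.3 CPM in retinas 1la, 1Ra, 2la and 2Ra. The Sox6-only sums, 84.3, 75.9, 137 and 65.1 CPM, were all higher than these. The Vsx1-only sums were 127, 93.2, 146 and 97.0 CPM, above all Ddit4l-only sums and overlapping with the Sox6-only ones. The log2 difference was 1.21 ± 0.25 between Vsx1-only and Ddit4l-only cells (adjusted p = 0.224 in edgeR) and -0.87 ± 0.25 between Ddit4l-only and Sox6-only cells (adjusted p = 0.535). The latter rested on retina 2la, without which it was -0.48 ± 0.37 (unadjusted p = 0.259 in edgeR, against 0.0212 with it). At 20 TPM or more, Unc13a was found in 41.1% (33.1 to 49.4) of Sox6-only, 65% (51.6 to 76.9) of Vsx1-only and 32.2% (20.6 to 45.6) of Ddit4l-only cells.

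Unc13b, a form found at photoreceptor ribbon synapses, overlapped between all groups, although within each of the 4 retinas the Ddit4l-only sum was the lowest of the 3. Its sums ran from 104 to 139 CPM in Sox6-only, 78.5 to 186 in Vsx1-only and 49.3 to 130 in Ddit4l-only cells. Without the rod-rich cells its means were 95.7 CPM ± 13.1 in Sox6-only, 127 ± 69.1 in Vsx1-only and 69.8 ± 49.2 in Ddit4l-only cells, against 122 ± 3.83, 138 ± 48.8 and 90.5 ± 44.2 with them. The part of rod RNA in its level was not tested.

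Unc13c, best known from the cerebellum, was the only member with a difference of more than 10-fold between group means. In Vsx1-only cells the sums were 408, 275, 305 and 214 CPM in retinas 1la, 1Ra, 2la and 2Ra, from 7958, 3673, 5144 and 2674 reads. In Sox6-only cells they were 0.693, 12, 13.8 and 43 CPM. In Ddit4l-only cells there was no read in either retina of mouse 1, and 19.9 and 22.3 CPM in retinas 2la and 2Ra. Every Vsx1-only sum was above every other sum. The means over mice were 309 CPM ± 68.4 (SD, n = 2), 15.5 ± 15.4 and 10.4 ± 14.7. By mouse, Vsx1-only cells had 357.5 CPM in mouse 1, where Ddit4l-only cells had no read among 27646122 counts, and 261 CPM in mouse 2, where Ddit4l-only cells had 20.8 CPM. No fold is given against the sum without reads, because the reads of this gene come in clumps from single cells.

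The reads outside Vsx1-only cells sat in few cells. In Ddit4l-only cells 747 of the 750 Unc13c reads lay in the 12 cells rich in rod transcripts, and 1 cell held 47.7% of them. In Sox6-only cells 967 of 2835 reads lay in the 44 rod-rich cells, and in Vsx1-only cells 7501 of 19449 lay in 19 such cells, 38.6% of reads against 31.7% of cells. Without the rod-rich cells the means were 288 CPM ± 76.1 in Vsx1-only, 15.1 ± 12.5 in Sox6-only and 0.0554 ± 0.0784 in Ddit4l-only cells. At least 1 expected count was found in 83.3% (71.5 to 91.7) of Vsx1-only, 15.9% (10.5 to 22.7) of Sox6-only and 13.6% (6.04 to 25) of Ddit4l-only cells. After each cell was thinned to 200000 counts these shares were 81.7%, 8.61% and 6.78%.

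Unc13c reached 20 TPM in 58.3% of Vsx1-only, 5.3% of Sox6-only and 5.1% of Ddit4l-only cells. The number of cells with several Unc13 genes depends on such shares, and whether the genes go together beyond them was not tested. All 3 genes reached 20 TPM in 10 of 60 Vsx1-only cells, 2 of 151 Sox6-only cells and 1 of 59 Ddit4l-only cells. None of them did so in 5, 47 and 22 cells. Of the summed Unc13 TPM, Unc13c held 30% ± 9.73 (SD, n = 2 mice) in Vsx1-only, 2.03% ± 1.64 in Sox6-only and 1.68% ± 2.38 in Ddit4l-only cells, with retina values of 22.8 to 41.8% in Vsx1-only cells and at most 6.70% elsewhere. Unc13b held 37.8%, 62.7% and 68.6% in the same order, and Unc13a 32.2%, 35.3% and 29.7%.

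**Figure D3:**
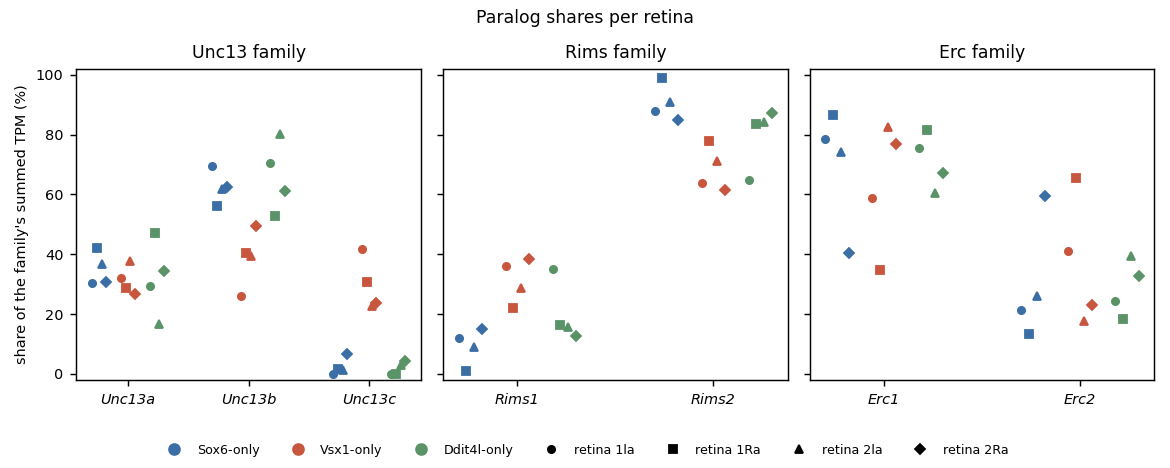
Share of each family's summed TPM held by each paralog, in percent on the vertical axis; each point is 1 retina, with the colour for the cell group and the shape for the retina. Unc13c points of Vsx1-only cells lie at 22.8 to 41.8%, above all points of the other groups, and the Erc1 and Erc2 points of the groups are mixed.

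These shares depend on the lengths that the quantification used. The length implied for Unc13a was under 50% of its longest transcript (10255 bases) in 60.3%, 73.7% and 76.2% of Sox6-only, Vsx1-only and Ddit4l-only cells with enough counts, and that of Unc13b was under 50% of its longest (14754 bases) in all of them. For Unc13c the median was 8897 bases in Vsx1-only cells, against 8796 for its longest transcript. A short length raises a gene's TPM for the same number of reads. With the summed counts divided by the longest annotated transcript of each gene instead, Unc13c held 62.3% of the Unc13 total in Vsx1-only, 8.47% in Sox6-only and 7.48% in Ddit4l-only cells, and Unc13a 20.7%, 47.7% and 43.8%. This alternative was added after the data had been seen. Unc13c had its highest share in Vsx1-only cells under both, while for Unc13a the group with the lowest share went from Ddit4l-only to Vsx1-only cells. The gene with the largest share went from Unc13b to Unc13c in Vsx1-only cells and from Unc13b (62.7%) to Unc13a (47.7%, against 43.9% for Unc13b) in Sox6-only cells. The highest length implied for Unc13b in any of these cells was 6432 bases, far from the 14754 bases used in the alternative. Division by 14754 bases therefore makes the Unc13b share small, and these changes of the largest share are not a result about the genes.

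**Figure D4:**
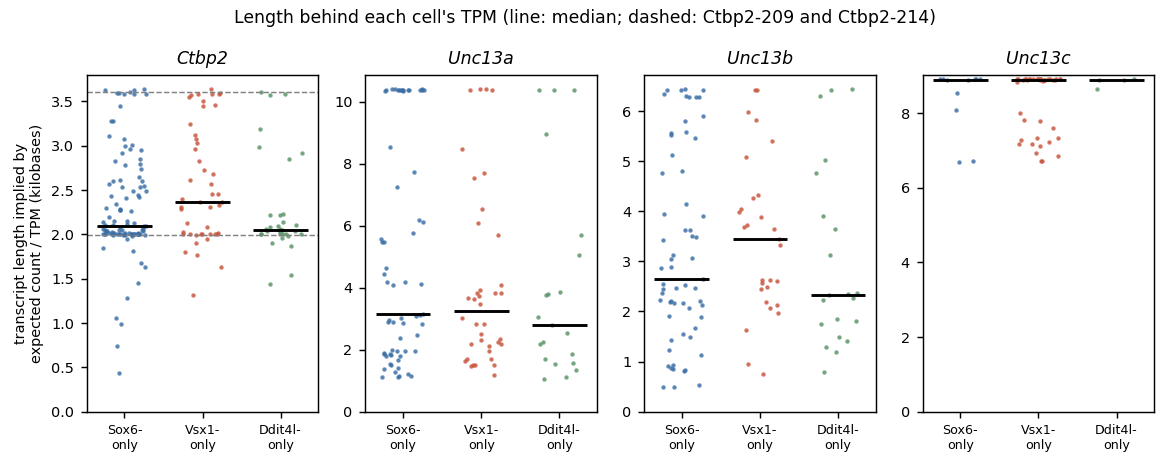
Transcript length implied by expected count over TPM, in kilobases on the vertical axis, per cell for Ctbp2 and the Unc13 genes; each point is a cell with at least 50 counts and 5 TPM, the solid line is the median and the dashed lines are the lengths of Ctbp2-209 and Ctbp2-214. Ctbp2 cells lie mostly between 1997 and 3604 bases, and Unc13a cells fall mostly at lengths far under the longest transcript of 10255 bases.

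Over the whole table, edgeR's quasi-likelihood test on 6 sums (3 groups in 2 mice, with the mouse as a block) called no gene at an adjusted p under 0.05 between Vsx1-only and Sox6-only cells (0% of 16646 genes) or between Ddit4l-only and Sox6-only cells (0%), and 7 genes, 0.0421%, between Vsx1-only and Ddit4l-only cells. None of the 10 members was called in any of the 3 comparisons. At an unadjusted p under 0.05 edgeR had 1 member, Rims2, in the first comparison beside 8.58% of all genes. It had 1, Unc13a, in the second beside 8.06%, and 3, Ctbp2, Unc13a and Unc13c, in the third beside 12.9%. The log2 differences of Unc13c were 5.49 ± 2.17 against Sox6-only cells (adjusted p = 0.594) and 6.80 ± 2.45 against Ddit4l-only cells (adjusted p = 0.373), and the latter depends on the small count that the model adds to a sum of 0. The median log2 difference of the 10 members was 0.31, -0.55 and 0.75 in the 3 comparisons, beside -0.05, -0.08 and 0.01 over all genes. The comparisons share their groups, so these medians are not independent of each other.

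Other tools called some members. Limma on the mean log2(TPM + 1) of the cells called Unc13a and Unc13c between Vsx1-only and Sox6-only cells (2 members, beside 4.82% of 8733 genes), with differences of 1.76 and 3.92 on that scale and adjusted p of 0.033 and 4.4e-04. Between Vsx1-only and Ddit4l-only cells it called Ctbp2 (1.86, adjusted p = 0.012), Pclo (1.66, 0.041), Unc13a (2.40, 0.0049) and Unc13c (3.98, 2.6e-04), beside 8.58% of genes. DESeq2 called Ctbp2 and Unc13a in the same comparison, beside 11.9% of genes, with adjusted p of 0.016 and 0.0038, and no member between Vsx1-only and Sox6-only cells, beside 6.54%. Neither tool called a member between Ddit4l-only and Sox6-only cells, where limma called 2.76% and DESeq2 5.62% of genes. The mean of logs weighs the share of cells with a gene more than its sum does, and all of these tests rest on 2 mice. Leaving out the rod-rich cells, edgeR called no member in the mouse sums. In retina sums without them, an alternative added after the data had been seen, it called Unc13c between Vsx1-only and Ddit4l-only cells (adjusted p = 0.0075), beside 1.81% of genes.

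By retina, 1 member was higher in every Vsx1-only sum than in every Sox6-only sum (Unc13c, beside 3.36% of 14508 genes) and 1 was lower (Rims2, beside 4.76%). Unc13a was lower in every Ddit4l-only than in every Sox6-only sum, beside 4.46% of genes, and no member was higher (2.6%). Unc13a and Unc13c were higher in every Vsx1-only than in every Ddit4l-only sum, beside 4.67%, and no member was lower (3.75%). The other 7 members overlapped in all 3 comparisons. Since each retina holds all 3 groups, the sign of the difference within each retina was read as well, a choice made after the data had been seen. In all 4 retinas Rims1, Unc13a and Unc13c were higher in Vsx1-only than in Sox6-only cells, beside 9.24% of genes, and Rims2 was lower, beside 12.2%. Rims1 was higher in Ddit4l-only than in Sox6-only cells in all 4, beside 7.64%, and Ctbp2, Unc13a and Unc13b were lower, beside 12.4%. Ctbp2 and all 3 Unc13 genes were higher in Vsx1-only than in Ddit4l-only cells in all 4, beside 11.3%, and Rims2 was lower, beside 9.59%. Retinas of a mouse are not independent, so these counts are a description.

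**Figure D5:**
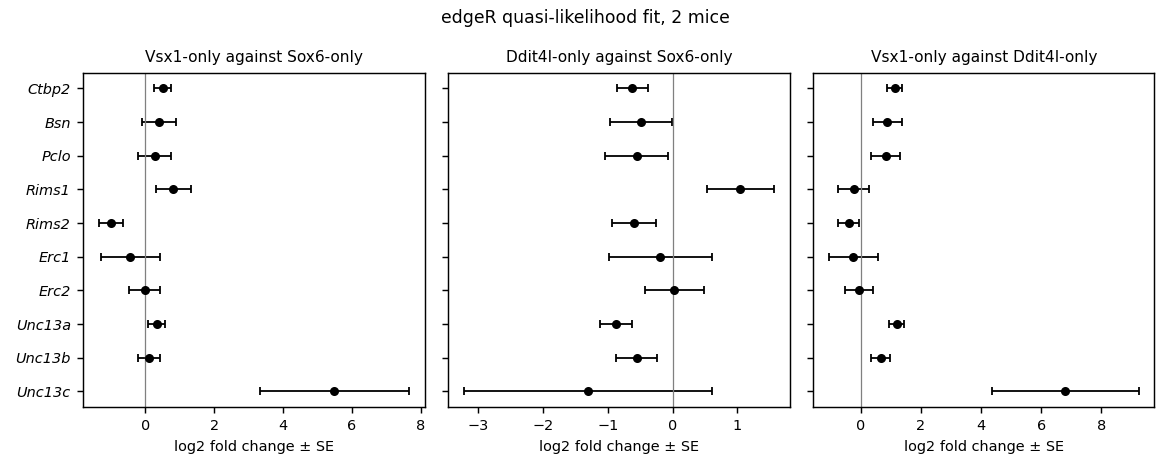
Fitted log2 fold change of each gene with its standard error (bars) in the 3 comparisons, from edgeR's quasi-likelihood fit on the sums of 2 mice; the horizontal scales differ between panels. Unc13c has differences of 5.49 and 6.80 with wide errors in the panels with Vsx1-only cells, and the other 9 genes lie between -0.99 and 1.21 in all 3 panels.

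Of a list of 42 partners at the active zone and in vesicle priming, chosen with earlier results of these data known, 41 were tested in the mouse sums and edgeR called none in any comparison. At an unadjusted p under 0.05 edgeR had 5, 0 and 10 of them in the 3 comparisons, beside 8.58%, 8.06% and 12.9% of all genes. When cells were summed by retina and the retina was a blocking term, 38 were tested. There edgeR called 2 partners higher and 2 lower in Vsx1-only than in Sox6-only cells, beside 0.868% of genes, and 3 higher and 2 lower than in Ddit4l-only cells, beside 2.52%. It called none between Ddit4l-only and Sox6-only cells, beside 0.613%. No member was called in these sums, which treat the retinas of a mouse as separate. The 5 partners are named after their values were seen. Cadps, a priming factor of dense-core and synaptic vesicles, had means of 567 CPM ± 67.2 (SD, n = 2 mice) in Vsx1-only, 114 ± 13.6 in Sox6-only and 115 ± 43.9 in Ddit4l-only cells. Stxbp5 (tomosyn), an inhibitor of SNARE assembly, had 262 ± 56, 113 ± 15.5 and 105 ± 9.65. Syt1, the fast calcium sensor of release, had 1480 ± 140, 1260 ± 27.8 and 1043 ± 38.6, and was called only against Ddit4l-only cells. Rims4, a short RIM protein, had 1.25 ± 1.10, 67.6 ± 15.6 and 27.7 ± 3.98, and Lin7a, a scaffold protein, 328 ± 141, 945 ± 6.14 and 660 ± 133. In the mouse sums DESeq2 called Cadps, Stxbp5, Rims4 and Lin7a in both comparisons with Vsx1-only cells. It also called Rab3d against Sox6-only cells, and Apba1, Rims3, Syt2 and Tulp1 against Ddit4l-only cells. These were 5 and 8 of 42 partners, beside 6.54% and 11.9% of genes. Limma called Cadps, Stxbp5, Rims4 and Lin7a in both as well, and with them Tulp1 against Ddit4l-only cells. These were 4 and 5 of the 29 partners it tested, beside 4.82% and 8.58% of genes. Neither called a partner between Ddit4l-only and Sox6-only cells, where DESeq2 called 5.62% and limma 2.76% of genes. Tulp1, a photoreceptor protein, had 73.3 CPM ± 8.20 in Vsx1-only, 56.9 ± 0.636 in Sox6-only and 22.3 ± 17.8 in Ddit4l-only cells, and 13.7, 5.49 and 1.85 CPM without the rod-rich cells. Syt2, another calcium sensor, had 3.69 CPM in mouse 1 and 47.4 CPM in mouse 2 in Vsx1-only cells and at most 2.79 CPM in any mouse in the other groups.

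The 4 partners below were given whatever their values. Ctbp1, the paralog of Ctbp2, was far lower than Ctbp2, at 20.3 CPM ± 6.15 in Sox6-only, 44.8 ± 5.39 in Vsx1-only and 36.2 ± 11 in Ddit4l-only cells. Rimbp2, which couples RIMs to calcium channels, was at 4.02 ± 2.25, 15.1 ± 5.83 and 5.89 ± 1.5 CPM. Rab3a, the vesicle protein that RIMs bind, had 469 ± 61.8, 505 ± 3.94 and 573 ± 60.4 CPM. Cacna1f, the calcium channel subunit of photoreceptor and bipolar cell terminals, had 549 ± 58.5, 378 ± 46.6 and 375 ± 180 CPM. None of these 4 was called in any comparison, in mouse or in retina sums. The lowest edgeR adjusted p of the mouse sums was 0.615.

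For the members whose highest and lowest group means differed at least 2-fold, the genes with the most similar pattern over the 12 retina and group sums were sought among 3851 genes with a mean of at least 50 CPM (3852 for Rims1). For Unc13c (29.7-fold) they were Stxbp5l, BC048943 and Camkv, with Pearson's r of 0.924, 0.919 and 0.915. For Unc13a (2.31-fold) they were Pgm2, Fn1 and Aplp2 (0.903, 0.897 and 0.887). For Ctbp2 (2.14-fold) they were Tecpr1, Lrtm1 and Dbp (0.916, 0.916 and 0.915). For Rims1 (2.09-fold) they were Mon2, Ndufb2 and Vopp1 (0.835, 0.823 and 0.818). Over the 6 mouse and group sums the r of these genes was 0.968, 0.959 and 0.989 for Unc13c, 0.935, 0.973 and 0.975 for Unc13a and 0.914, 0.954 and 0.986 for Ctbp2. For Rims1 it was only 0.348, 0.347 and 0.616, at ranks 1103, 1106 and 460, so the likeness to Rims1 was not kept at the level of the mice. The 12 sums share mice, retinas and depth, and these r values are the highest over all genes compared, so they describe likeness only.

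Between the Ra and la retinas, whose suffixes the labels do not explain, edgeR on the Sox6-only cells called none of 15745 genes (0%) and no member. At an unadjusted p under 0.05 it had 7.7% of genes and no member, and DESeq2 called 3.68% of genes and no member. Erc1 had the lowest unadjusted p of the members, with a log2 difference of -1.25 ± 0.54 (adjusted p = 0.689 in edgeR). With the mouse as a block, since each mouse gave 1 retina of each kind, Erc1 had -1.24 ± 0.32 and was the 1 member with an unadjusted p under 0.05 (p = 0.0231, adjusted p = 0.757 in edgeR), beside 6.12% of genes. Sox6-only cells of 1Ra and 2Ra had medians of 747268 and 1000626 counts, against 1304984 and 1193940 in 1la and 2la. Their median genes were 5164 and 5918 against 6551 and 6732, and mitochondrial counts 4.23% and 4.97% against 1.97% and 2.13%. The part of depth and cell quality in these differences was not tested.

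In the 33 cells with none of the 3 markers, Unc13c was found in 36.4% (20.4 to 54.9) of cells and had means of 56.2, 5.73, 85.2 and 0 TPM in retinas 1la, 1Ra, 2la (4 cells) and 2Ra, a spread that reaches from none to above the Vsx1-only mean, while Rims1 was at 1.08 ± 0.491 TPM. The 18 cells with several markers held Ctbp2 in all and Rims1 in 61.1% (35.8 to 82.7), with Rims1 means of 98.5, 12.5, 66.2 and 21.6 TPM in the same order of retinas, from 2, 3, 4 and 9 cells. In the 62 wells below the gene minimum no member was found in more than 24.2% of wells, and Erc2 was found in none of them, which allows a share of up to 4.84% (3 counts of 62). In 1 such well of retina 2Ra, with 8410 counts over 953 genes, Rims2 had 2159 counts, or 72410 TPM.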

How the data were processed

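Single YFP-sorted retinal cells were read by Smart-seq2. The tools named in the submitters' processing notes are RSEM 1.2.28 and TopHat2 2.0.10, with the build mm10; the annotation is not given in the sources used here. The authors deposited 2 matrices, one of expected counts and one of TPM values, with no other normalization recorded. Here expected counts were rounded and summed per mouse and cell group, and edgeR 4.0.16 (filterByExpr, TMM scaling, quasi-likelihood test, mouse as a block) was fitted to all genes, with Benjamini-Hochberg adjustment over all of them and a threshold of 0.05. The pairing of the groups comes from the design, since each mouse gave all 3 groups. The labels pair the retinas by mouse. CPM values are TMM-scaled, except those without rod-rich cells and the values they are set against. Cells with several markers were kept out of the groups, and no doublet caller was run. The highest correlation of log counts between any 2 of the 321 cells above the gene minimum was 0.770, so none of these was a copy of another. The wells below the minimum were not compared. DESeq2 1.42.0, limma 3.58.1 and other filters, markers and sums served as alternatives. The edgeR fits of mouse and retina sums were also run on counts simulated from edgeR's own model and spread. That checks the code and cannot show how well the model fits these data. The members and lists were chosen with earlier results of these data known. Named genes were all members, partners called in a comparison by any of the tools, 4 set partners, and the 3 genes most like each member whose means differed 2-fold. One well (1la D8) was not analysed here.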

Additional observations from a re-analysis of the deposited data

Results flagged for a closer look

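In Vsx1-only cells, the Bsn sum of retina 2la (254.4 CPM) lay far from those of the other 3 retinas (97.7 to 118 CPM), with a gap of 0.872 of the whole range. About 1 group in 20 is picked out in this way by chance. The sum of Unc13c had a different Ra and la pattern in 2 groups: the log2 ratio of Ra over la averaged 2.87 in Sox6-only cells and -0.54 in Vsx1-only cells, a difference of 3.41 that had the same sign in both mice and was not tested. The Sox6-only sums behind it were low (29 to 1784 reads).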

How the results depend on the processing

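With 2 mice and 6 sums, edgeR called no gene between Vsx1-only and Sox6-only cells. Yet Vsx1, which defines a group, had means of 319 and 0.324 TPM in these groups. At this depth the absence of a call therefore does not show equal levels, even where the difference is large. No member was called by edgeR under the other scalings, filters, marker levels, gene minimums and depths, with 1 retina left out (0 members in each), or without the replicate block. The exceptions were limma, with 2 members between Vsx1-only and Sox6-only and 4 between Vsx1-only and Ddit4l-only cells, DESeq2, with 2 in the latter comparison, and, added after seeing the data, sums per retina without rod-rich cells, with 1 there (Unc13c, adjusted p = 0.0075). The count of genes called moved far more than the members did: against 0, 0 and 7 in the 3 comparisons, it was 16, 2 and 62 with no replicate block, 126, 89 and 366 in retina sums, 37, 11 and 86 in thinned cells, 421, 241 and 749 by limma and 991, 878 and 1805 by DESeq2; with 1 retina left out it was 0 to 11. Between Ra and la retinas, DESeq2 called 547 genes against 0, and the replicate block called none.

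Of the 30 log2 differences of members between groups, 23 kept their sign under all alternatives. Sizes were not always kept. Between Ddit4l-only and Sox6-only cells Unc13c was -1.31, and -7.84 without rod-rich cells and -7.91 in retina sums without them. The adjusted p without them were 0.369 and 0.0825 in edgeR, and the Ddit4l-only mean in mouse sums was then 0.0554 CPM. The differences that did not keep their sign were near 0. Erc2, Vsx1-only against Sox6-only, was -0.02, and 0.026 with DESeq2 size factors and by DESeq2, 0.39 in retina sums, 0.027 and 0.073 at marker levels of 10 and 50 TPM, 0.032 at 4500 genes, 0.21 without rod-rich cells, 0.0082 thinned, 0.0062 by limma, 0.63 in retina sums without rod-rich cells and -0.26 to 1.02 with 1 retina left out. Against Ddit4l-only cells Vsx1-only cells had -0.05 for Erc2, and 0.075 in retina sums, 0.66 without rod-rich cells, 0.21 thinned, 0.88 in retina sums without rod-rich cells and -0.49 to 0.61 with 1 retina left out. Erc2, Ddit4l-only against Sox6-only, was 0.03, and -0.45 without rod-rich cells, -0.20 thinned, -0.26 in retina sums without them and -0.14 to 0.41 with 1 retina left out. Erc1 in that comparison was -0.19, and 0.076 in retina sums, 0.16 at 1500 genes, 0.051 by limma and -0.52 to 0.46 with 1 retina left out. Rims1, Vsx1-only against Ddit4l-only, was -0.23, and 0.050 at 50 TPM, 0.23 without rod-rich cells, 0.39 by limma, 0.34 in retina sums without them and -0.50 to 0.16 with 1 retina left out. Leaving out 1 retina also moved Unc13b, Vsx1-only against Sox6-only, between -0.13 and 0.46, and Erc1, Vsx1-only against Ddit4l-only, between -1.21 and 0.29. Between Ra and la, all single-marker cells gave -0.19 for Ctbp2, -0.12 for Pclo and -0.20 for Unc13c, leaving out rod-rich cells gave -0.53 for Pclo and 0.014 for Rims2, and leaving out 1 retina gave -0.062 to 0.14 for Ctbp2, -0.14 to 0.20 for Pclo, -3.56 to 0.36 for Rims1, -0.51 to 0.27 for Rims2 and 0.74 to 5.33 for Unc13c. The cause was not tested. Shares of cells moved beyond their counting interval in 44 of 60 alternatives (thinned, or at 20 TPM). These alternatives take out reads or ask for a higher level, so lower shares are built in and the count is no test of the shares.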
